A study of Mus musculus with 2 samples.

Results

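Macrophages are kept in a tissue by signals from the cells around them, and the genes described here are 10 such signals and receptors measured in the mouse leptomeninges. They were taken by gene symbol: the cytokines Il34 and Csf1 with their receptor Csf1r, the growth factors Tgfb1 and Tgfb2 with the receptor chains Tgfbr1 and Tgfbr2, the membrane chemokine Cx3cl1 with its receptor Cx3cr1, and the alarmin Il33. They are 10 of the 32287 genes in the count matrices, and each symbol was found on 1 row. The study peeled the leptomeninges, the thin membranes on the brain surface, by hand from the cerebral hemispheres of 3-month-old male and female Pdgfra-H2BGFP mice, a reporter line with nuclear green fluorescence in Pdgfra-expressing cells, and digested them to single cells. Droplet libraries of 3-month-old reporter tissue were deposited as R1 and R2. Both belong to 1 group, so every comparison is between cell types within the same 2 libraries. Nothing in the labels tells if R1 and R2 are separate animals or suspensions, and p-values therefore measure only the spread between these 2 libraries, which may be technical.

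Tissue macrophages and microglia carry the tyrosine kinase receptor CSF1R, which has IL-34 and CSF1 as its ligands, and mice that lack the receptor lose most of these cells. Fractalkine (CX3CL1) is made as a membrane-bound chemokine that can be shed, and its receptor CX3CR1 marks microglia and many border macrophages. TGF-beta is secreted in a latent form that has to be activated on cell surfaces or in the matrix, signals through TGFBR2 and TGFBR1 to SMAD proteins, and is needed for microglia to keep their identity.

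R1 held 7276 barcodes and R2 6743, with median depths of 1172.5 and 1024 UMIs (unique molecular identifiers, each counting 1 captured RNA molecule). Limits of 400 genes or more and of no more than 10% mitochondrial UMIs left 2988 and 3038 barcodes. Before any result, 93 barcodes were found in both libraries. In 78 of these 93 pairs, the share of genes with the same count was 19.0% to 31.2%, above that of every one of 8556 mismatched pairs, whose highest share was 13.7%. The other 15 pairs had 3.02% to 7.13%. Barcodes found in both libraries were therefore left out of all cell sums, and 2906 and 2957 cells were kept. This touched the endothelial-like cells most: 67 of 329 cells in R1 and 67 of 320 in R2 were shared, including a whole cluster. Their own values are kept apart.

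Cells were clustered without the 10 genes and without the pathway genes named further on, and clusters were named from markers. The fibroblast-like layers were a pial and perivascular class (194 and 130 cells in R1 and R2), inner arachnoid (218 and 414), arachnoid barrier (129 and 77) and dural border (488 and 271). Fibroblast-like clusters F02 (337 and 615 cells) and F08 (27 and 49) met no layer's naming limits and are in none of these classes. The vessel and immune classes were endothelial-like (262 and 253), mural-like (45 and 44), border macrophage-like (520 and 665), microglia-like (181 and 94) and monocyte- or dendritic-like cells (69 and 77). As examples, the 7 fibroblast markers summed to 13248 and 10881 CPM (a class's UMIs of a gene scaled to a fixed total of its UMIs) in pial cells, and the microglia markers to 17398 and 18855 CPM in microglia-like cells. The arachnoid barrier name is weaker. Its cluster F06 (88 and 44 cells) scored 1.111 for arachnoid barrier and 0.905 for dural border. Levels below are CPM of UMIs summed per library and class, and a pair of values is always in the order R1, R2. Differences are log2 fold changes ± SE from edgeR's quasi-likelihood test over all genes, with adjusted p-values over all genes tested.

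Ligands were higher in the stroma and receptors in the myeloid cells, with the TGF-beta genes as the exceptions. Of the 9 genes that passed the filter on low counts, 4 were called higher and 5 lower in the 4 fibroblast-like layers than in the border macrophage-like and microglia-like classes, where 35.1% of all genes tested were called higher and 31.4% lower. In the endothelial-like cells 4 were called higher and 4 lower than in the same myeloid classes, beside 24.9% and 21.0% of all genes. Set against the endothelial-like cells, the fibroblast-like layers had 2 genes called higher and 7 lower, beside 16.2% and 19.9% of all genes. Border macrophage-like cells differed from microglia-like cells in 3 of the 9 genes, all of them lower, beside 20.3% of all genes called in either direction. Il33 did not pass the filter.

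With the myeloid classes taken apart, the fibroblast-like layers had 5 genes called higher and 4 lower than border macrophage-like cells (34.3% and 31.3% of all genes), and 4 higher and 5 lower than microglia-like cells (28.0% and 26.1%). The endothelial-like cells had 3 higher and 3 lower than border macrophage-like cells (24.6% and 21.9%), and 4 higher and 4 lower than microglia-like cells (21.2% and 18.8%). With backgrounds this high the counts say little, and the levels below carry the description.

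**Figure D1:**
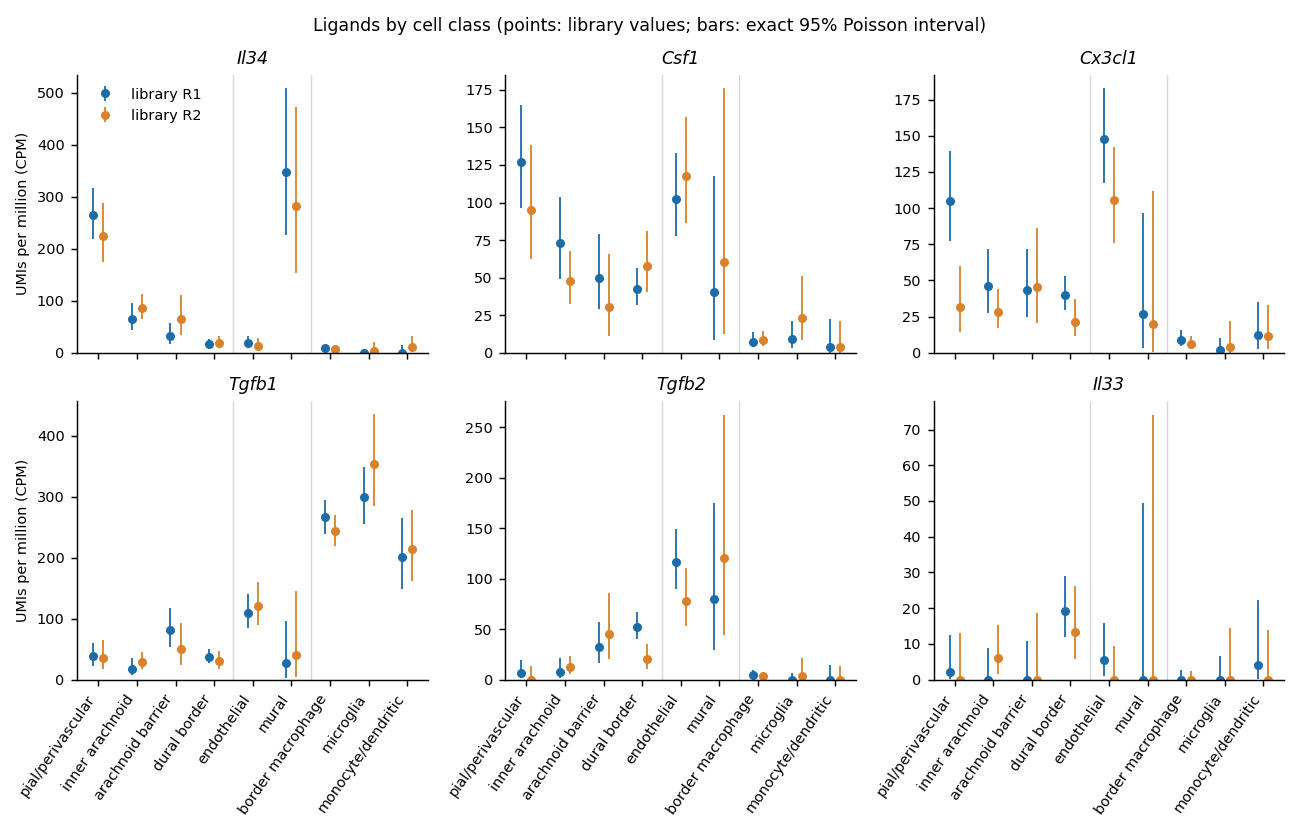
Levels of the ligands and Il33 by cell class (CPM), with one point for each library and bars for the exact 95% Poisson interval of its count. Il34 stands highest in mural-like and pial cells and Cx3cl1 in endothelial-like cells, while Tgfb1 is highest in microglia-like and border macrophage-like cells.

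**Figure D2:**
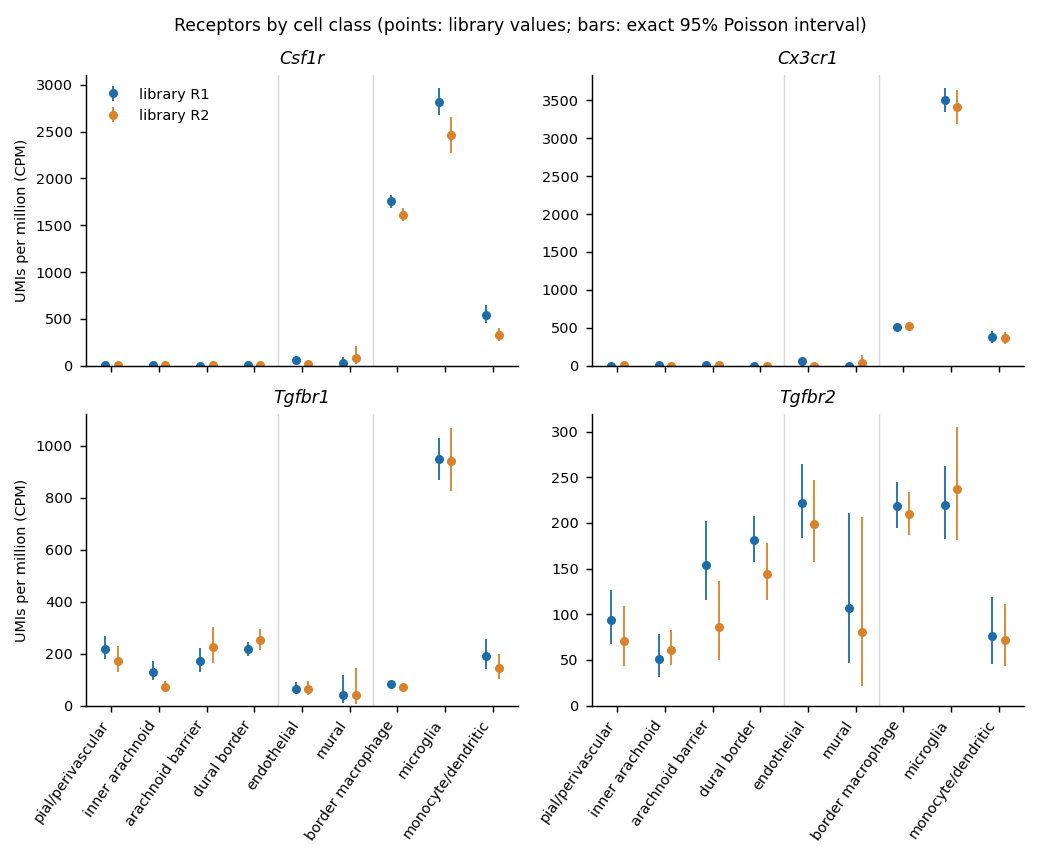
Levels of the receptors by cell class (CPM), with one point for each library and bars for the exact 95% Poisson interval of its count. Csf1r and Cx3cr1 lie in the myeloid classes, Tgfbr1 is highest in microglia-like cells, and Tgfbr2 is spread over myeloid, endothelial-like and dural border cells.

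Csf1r, the receptor shared by IL-34 and CSF1, was highest in myeloid classes. The fibroblast-like layers had 2.91 to 10.6 CPM. It stood at 1756 and 1614 CPM in border macrophage-like cells, 2817 and 2458 CPM in microglia-like cells and 546 and 330 CPM in monocyte- or dendritic-like cells, and no layer overlapped a myeloid class. Fibroblast-like cells were lower than border macrophage-like cells by a log2 fold change of −7.99 ± 0.20 (adjusted p = 2.5e-80) and lower than microglia-like cells by −8.56 ± 0.20 (adjusted p = 2.4e-84). Shares at 1000 UMIs, here and below, cover only the cells of a class with at least 1000 UMIs. Each was thinned to that depth, and shallower cells were left out. Of such dural border cells, which served as the background, 0.463% and 0.837% had a Csf1r UMI. In border macrophage-like cells the share was 74.5% and 68.0%, and in microglia-like cells 84.8% (exact 95% interval 77.7% to 90.3%) and 85.3% (74.6% to 92.7%). The endothelial-like cells held 66.6 and 22.6 CPM, but those 37 and 9 UMIs came from 8 and 9 cells, and 1 cell of R1 carried 12 of them. The border macrophage markers summed to 410 and 279 CPM in the endothelial-like class, and their part in this level was not tested.

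Border macrophage-like cells had less Csf1r than microglia-like cells in both libraries, with a log2 fold change of −0.57 ± 0.19 (adjusted p = 0.021). That call was lost under 6 of 11 alternatives, with an adjusted p of up to 0.277. The microglia markers summed to 909 and 785 CPM in border macrophage-like cells. Erythroid markers summed to 1743 and 2636 CPM in border macrophage-like cells, against 12775 and 1669 CPM in microglia-like cells, and their part in the differences between these classes was not tested.

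Il34, the CSF1R ligand known from neurons and skin keratinocytes, was a gene of pial and mural cells here. Pial and perivascular cells had 265 and 226 CPM (119 and 64 UMIs, in 85 and 41 cells). Mural-like cells had 348 and 282 CPM from only 26 and 14 UMIs. From there the level stepped down through inner arachnoid (65.5 and 86.8 CPM), arachnoid barrier (32.0 and 65.4 CPM) and dural border cells (17.4 and 18.2 CPM). Inner arachnoid and arachnoid barrier nearly met, with means of 76.2 ± 15.1 and 48.7 ± 23.6 CPM (SD, n = 2), and dural border cells overlapped the endothelial-like cells (18 and 12.5 CPM). The myeloid cells had almost none: border macrophage-like cells 8.87 and 7.31 CPM, and microglia-like cells 0 and 1 UMI.

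Il34 was higher in the fibroblast-like layers than in border macrophage-like cells by a log2 fold change of 2.73 ± 0.30 (adjusted p = 4.7e-15). Against microglia-like cells the pooled ratio was 63.8 (exact 95% interval 11.4 to 2529), which rests on a single microglial UMI and covers counting error only. At 1000 UMIs per cell, an Il34 UMI was seen in 24.7% (18.3% to 32.1%) and 19.1% (11.5% to 28.8%) of pial cells, against 0.813% and 0.733% of border macrophage-like cells. The unthinned shares of all pial cells were 43.8% and 31.5%, at median depths of 2076.5 and 1583.5 UMIs. Endothelial-like cells did not pass the test against border macrophage-like cells (0.68 ± 0.52, adjusted p = 0.29), and did so under 1 of 7 alternatives.

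Csf1, the other ligand of the receptor, had a broader pattern. It was at 127 and 95.2 CPM in pial cells and 103 and 118 CPM in endothelial-like cells, 2 classes whose ranges overlap. The other layers had 30.2 to 72.8 CPM, border macrophage-like cells 7.39 and 8.64 CPM, and microglia-like cells 9.02 and 23.3 CPM. Csf1 was thus higher in every stromal class than in the macrophage and microglia classes of the same library. It was higher in the fibroblast-like layers than in border macrophage-like cells (2.67 ± 0.30, adjusted p = 4.5e-15) and than in microglia-like cells (1.98 ± 0.40, adjusted p = 6.6e-06). In endothelial-like cells it was higher than in border macrophage-like cells (3.45 ± 0.33, adjusted p = 9.9e-19) and than in microglia-like cells (2.76 ± 0.41, adjusted p = 2.4e-09). The fibroblast-like layers had less Csf1 than the endothelial-like cells (−0.78 ± 0.22, adjusted p = 0.0020) and more Il34 (2.05 ± 0.36, adjusted p = 4.1e-07). The Csf1 call was lost with a mitochondrial limit of 5% (adjusted p = 0.46) and when 1 part of the counts drew the classes and the other was tested (adjusted p = 0.34).

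Cx3cr1, the fractalkine receptor, was led by microglia-like cells. In the fibroblast-like layers it lay between 0 and 8.74 CPM. Its levels were 514 and 519 CPM in border macrophage-like cells, against 3497 and 3407 CPM in microglia-like cells, and monocyte- or dendritic-like cells had 373 and 360 CPM. Border macrophage-like cells were lower than microglia-like cells by −2.67 ± 0.21 (adjusted p = 5.8e-23), the clearest split within the macrophage lineage beside Tgfbr1. With 1000 UMIs per cell, 27.6% and 24.9% of border macrophage-like cells had a Cx3cr1 UMI, against 73.2% and 70.6% of microglia-like cells. No layer exceeded 1.12%. The endothelial-like cells read 63.0 CPM in R1 and 2.51 CPM in R2, and 27 of the 35 UMIs in R1 sat in 1 cell. So the difference between fibroblast-like and endothelial-like cells (−3.19 ± 0.46, adjusted p = 1.3e-09) rests on R1: the value was 0.35 in R2 alone.

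Cx3cl1, which encodes fractalkine itself, was highest in endothelial-like cells at 148 and 105 CPM (82 and 42 UMIs). Pial cells followed with 105 and 31.7 CPM, a wide spread, and the other layers had 21.6 to 46.1 CPM. In border macrophage-like cells the level was 8.87 and 5.98 CPM, and in microglia-like cells 2 UMIs in all. Relative to border macrophage-like cells, Cx3cl1 was higher in endothelial-like cells by 3.77 ± 0.33 (adjusted p = 3.7e-21) and in the fibroblast-like layers by 2.29 ± 0.32 (adjusted p = 1.05e-10). The fibroblast-like layers had less of it than the endothelial-like cells (−1.48 ± 0.22, adjusted p = 3.3e-09). At 1000 UMIs per cell, 14.4% and 10.4% of endothelial-like cells had a Cx3cl1 UMI, against 0.813% and 1.47% of border macrophage-like cells.

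The TGF-beta ligands were split between lineages. The promoters of this pair are shown because the genes lie at opposite ends of that split. They are 150 bases before each start site, from RefSeq on GRCm38.p6. Capitals mark GC boxes (GGGCGG, either strand), TATA boxes (TATAAA) and CCAAT boxes, none of which overlap here.
Tgfb1 (chr7:25686852-25687001, + strand): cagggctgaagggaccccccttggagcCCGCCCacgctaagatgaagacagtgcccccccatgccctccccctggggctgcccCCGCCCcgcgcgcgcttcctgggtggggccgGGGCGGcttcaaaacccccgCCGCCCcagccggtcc
Tgfb2 (chr1:186705990-186706139, − strand): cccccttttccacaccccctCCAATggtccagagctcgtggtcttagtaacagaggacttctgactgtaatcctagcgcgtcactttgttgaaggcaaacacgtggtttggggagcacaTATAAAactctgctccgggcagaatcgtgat
The Tgfb1 window has 76% GC and 4 GC boxes, and no TATA or CCAAT box by these letters. The Tgfb2 window has 51.3% GC, a TATA box that starts 31 bases before the start site and a CCAAT box, and it overlaps an exon of Gm29491. Over 32851 promoter windows of the same length, 28.6% held a GC box, 7.57% a TATA box and 24.5% a CCAAT box. These matches describe the sequence and are not sites of binding.

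Tgfb1 was highest in the myeloid classes. The fibroblast-like layers had 17.0 to 81.5 CPM and endothelial-like cells 110 and 120 CPM. In border macrophage-like cells the level was 266 and 243 CPM, in microglia-like cells 299 and 354 CPM and in monocyte- or dendritic-like cells 201 and 214 CPM. All fibroblast-like and endothelial-like values lay below all myeloid values. The fibroblast-like layers were lower than border macrophage-like cells by −2.94 ± 0.16 (adjusted p = 4.8e-38) and than microglia-like cells by −3.22 ± 0.19 (adjusted p = 7.3e-36). Endothelial-like cells were lower than border macrophage-like cells by −1.43 ± 0.21 (adjusted p = 1.1e-09). Border macrophage-like and microglia-like cells did not differ past the threshold (−0.27 ± 0.19, adjusted p = 0.34).

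Tgfb2 had the opposite distribution. It was at 117 and 77.8 CPM in endothelial-like cells and 80.3 and 121 CPM in mural-like cells, where each library had 6 UMIs. Among the layers it was at 52.2 and 19.9 CPM in dural border cells, 32.0 and 45.3 CPM in arachnoid barrier cells, 7.28 and 12 CPM in inner arachnoid cells and 6.69 and 0 CPM in pial cells. The level in border macrophage-like cells was 4.44 and 3.32 CPM, and microglia-like cells had 1 UMI in all. Endothelial-like cells were higher than border macrophage-like cells by 4.29 ± 0.40 (adjusted p = 6.5e-19) and than the fibroblast-like layers, which lay lower by −2.57 ± 0.30 (adjusted p = 1.6e-13). The fibroblast-like layers were higher than border macrophage-like cells (1.73 ± 0.52, adjusted p = 0.0023). That last call was lost at equal UMI totals (adjusted p = 0.18) and when 1 part of the counts drew the classes and the other was tested (adjusted p = 0.061).

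Tgfbr1, the type I receptor that phosphorylates SMADs, separated the myeloid classes from each other. The level was 81.3 and 69.8 CPM in border macrophage-like cells, against 947 and 941 CPM in microglia-like cells. Dural border (216 and 252 CPM), pial (218 and 173 CPM) and arachnoid barrier cells (172 and 226 CPM) came next after microglia and overlapped each other, and monocyte- or dendritic-like cells (193 and 146 CPM) overlapped the pial values. Inner arachnoid cells had 131 and 70.3 CPM and overlapped the border macrophage-like cells. Border macrophage-like cells were lower than microglia-like cells by −3.57 ± 0.21 (adjusted p = 3.1e-35). The direction of the stromal difference therefore depended on the myeloid class chosen. The fibroblast-like layers were higher than border macrophage-like cells (0.97 ± 0.18, adjusted p = 7.0e-07) and lower than microglia-like cells (−2.61 ± 0.14, adjusted p = 6.8e-38). Against the mean of both myeloid classes the value was −0.82 ± 0.13 (adjusted p = 1.3e-08). At 1000 UMIs per cell, 5.96% and 7.09% of border macrophage-like cells had a Tgfbr1 UMI, against 52.2% and 52.9% of microglia-like cells.

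Tgfbr2, the type II receptor that binds the ligand first, had like levels in several classes. It was at 218 and 209 CPM in border macrophage-like cells, 220 and 237 CPM in microglia-like cells and 221 and 198 CPM in endothelial-like cells, whose range overlaps that of the border macrophage-like cells. Border macrophage-like cells differed from microglia-like cells by −0.01 ± 0.20 (adjusted p = 0.99), and endothelial-like cells from the myeloid mean by −0.31 ± 0.18 (adjusted p = 0.15). The endothelial-like cells were called lower under 4 of 12 alternatives, with adjusted p-values from 0.0037 to 0.92 over all 12. Fibroblast-like layers were lower than the myeloid classes by −1.32 ± 0.14 (adjusted p = 1.5e-16). The receptor pair was thus uneven in border macrophage-like cells, where the difference from microglia-like cells was −0.01 for the type II chain and −3.57 for the type I chain.

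**Figure D3:**
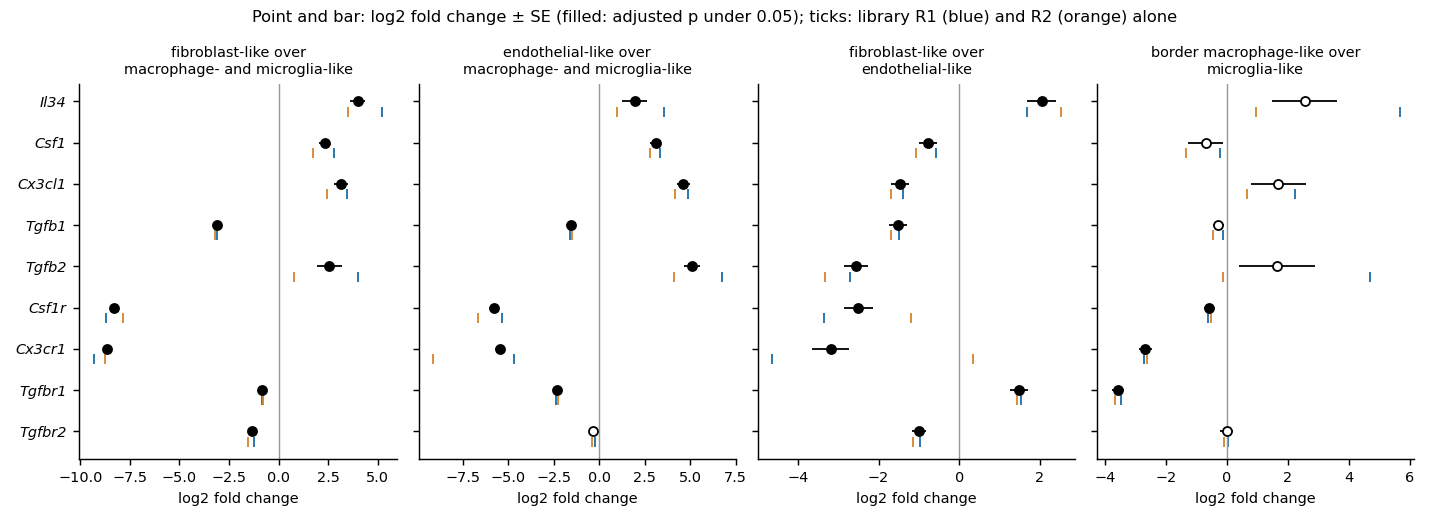
Log2 fold changes with standard errors for the 9 genes tested, in each of the comparisons between lineages, with ticks for each library alone and filled points for calls. Values right of 0 are higher in the first-named class. Ligands other than Tgfb1 lie right of 0 for both stromal lineages against the myeloid classes, and Csf1r and Cx3cr1 lie farthest left.

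Il33, a nuclear cytokine released when barrier cells are damaged, was rare. Dural border cells held 30 of its UMIs, 22 and 8 in the 2 libraries, or 19.2 and 13.3 CPM. The other 3 layers together held 5 UMIs, so the level in dural border cells was 8.07 times theirs (exact 95% interval 3.10 to 26.6, counting error only). Both dural border clusters carried it, at 27.2 and 17.7 CPM in one and 11.7 and 10.6 CPM in the other. No Il33 UMI was seen in arachnoid barrier, mural-like, border macrophage-like or microglia-like cells. The unnamed fibroblast-like cluster F02 also held it, at 24.7 and 16.5 CPM from 7 and 9 UMIs. Its best-scoring layer was dural border, at 0.436, under the score of 0.75 needed for a name. The gene was too low to be tested.

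The 4 layers were also compared with each other, each against the mean log2 level of the other 3. Of the 7 genes tested in that fit, pial and perivascular cells had 3 called higher and 1 lower, beside 9.95% and 8.40% of all genes. Inner arachnoid cells had 1 higher and 1 lower (18.2% and 12.1% of all genes). The counts were 0 higher and 1 lower in arachnoid barrier cells (6.76% and 4.46%). In dural border cells 4 were called, 2 of them higher and 2 lower, beside 19.1% of all genes called in either direction. Csf1r, Cx3cr1 and Il33 were too low in the layers to be tested.

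Both CSF1R ligands were highest in pial cells among the layers. Il34 was higher there by 2.63 ± 0.21 (adjusted p = 3.1e-12) and Csf1 by 1.18 ± 0.24 (adjusted p = 0.00035). Csf1 missed the threshold at a mitochondrial limit of 5% (adjusted p = 0.13). Cx3cl1 was called higher (0.92 ± 0.28, adjusted p = 0.016), but the value was 1.27 in R1 and 0.03 in R2. Tgfb2 was called lower (−2.59 ± 0.72, adjusted p = 0.0087) on 3 pial UMIs. The pooled level was 0.134 times that of the other layers (exact 95% interval 0.0272 to 0.403, counting error only), and DESeq2 did not call it. Astrocyte markers summed to 1416 and 1297 CPM in pial cells and to 322 to 1354 CPM in the other layers, and their part in these values was not tested.

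Dural border cells, the outermost of the 4 layers, mirrored this. Il34 was lower there by −2.59 ± 0.28 (adjusted p = 6.7e-09). Tgfb2 was higher (1.49 ± 0.40, adjusted p = 0.0056), as was Tgfbr2 (0.75 ± 0.18, adjusted p = 0.0024), and DESeq2 called neither (adjusted p = 0.28 and 0.14). Cx3cl1 was called lower (−0.83 ± 0.27, adjusted p = 0.025), a call lost under 5 of 12 alternatives. Csf1 did not pass the test (−0.63 ± 0.24, adjusted p = 0.063) and was called lower under 5 of 12 alternatives.

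The inner arachnoid and barrier values were weaker. Inner arachnoid cells were called higher in Il34 (0.84 ± 0.25, adjusted p = 0.0089) and lower in Tgfbr1 (−0.66 ± 0.22, adjusted p = 0.021), calls lost under 6 and 7 of 12 alternatives. The Il34 value is against the mean of the other layers' normalized log2 levels. By mean CPM the direction was the other way, with 65.5 and 86.8 CPM in inner arachnoid cells, against 105 and 103 CPM in the other layers. This class was also unlike the other layers in its nuclear RNA: 32.6% and 17.6% of inner arachnoid cells had at least 1% of UMIs from Malat1, a nuclear-retained RNA, against 89.6% to 96.5% in the other layers. The part of Malat1 content in these values was not tested apart from the alternative that kept only cells with at least 1%, in which both calls are among those lost. Arachnoid barrier cells had less Csf1 (−0.95 ± 0.32, adjusted p = 0.049), a call lost under 5 of 9 alternatives.

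**Figure D4:**
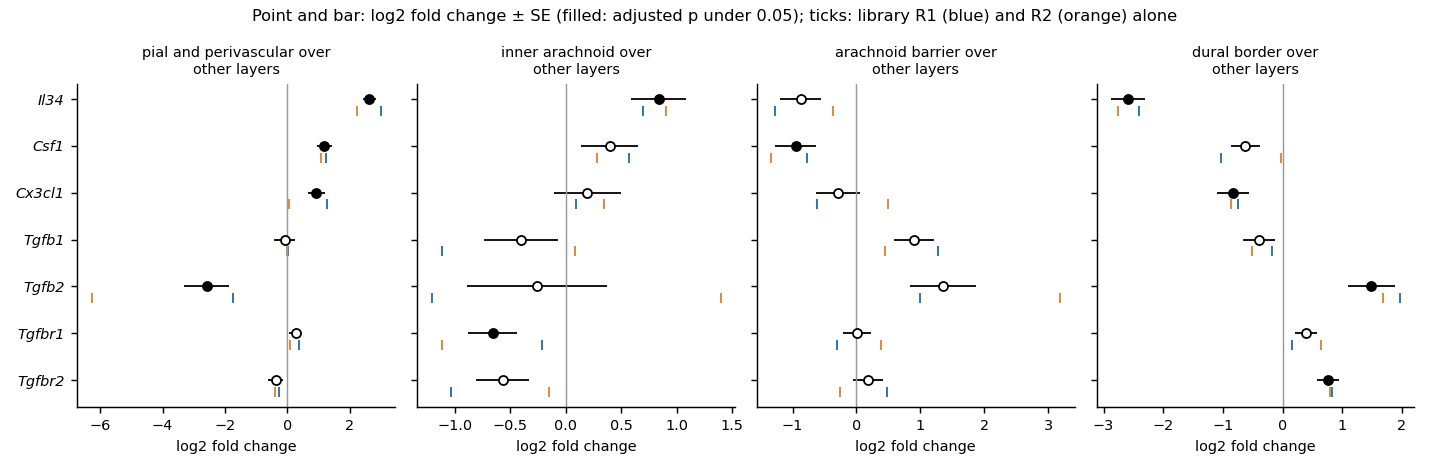
Log2 fold changes with standard errors of each fibroblast-like layer against the mean log2 level of the other 3, for the 7 genes tested, with ticks for each library alone and filled points for calls. Il34 runs from 2.63 in pial cells to −2.59 in dural border cells, and Tgfb2 runs the other way.

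Without the barcodes found in both libraries, the endothelial-like class was made of 2 clusters, and the genes differed between them. Another endothelial cluster, C07, was left out whole, because all its 60 cells in each library were such barcodes. Fos, Atf3, Lrg1 and Ackr1 led its markers, and the endothelial-like levels given here do not cover it. Cluster C18 (73 and 78 cells) held arterial markers at 3921 and 4338 CPM, against 319 and 163 CPM in C11 (189 and 175 cells), while capillary markers summed to 3143 and 3917 CPM in C18 and 5904 and 6563 CPM in C11. Of the 9 genes tested, 1 was called higher and 1 lower in C18 than in C11, beside 3.21% and 3.82% of all genes and a median log2 fold change of −0.11 over all genes. Cx3cl1 stood at 365 and 308 CPM in C18, against 97.4 and 39.9 CPM in C11, a log2 fold change of 2.20 ± 0.32 (adjusted p = 3.9e-09). Tgfbr2 stood at 106 and 51.3 CPM in C18, against 248 and 246 CPM in C11 (−1.71 ± 0.36, adjusted p = 0.00015). For both genes the values of the clusters did not overlap. Csf1 was at 135 and 164 CPM in C18 and 95.2 and 103 CPM in C11, which did not pass the test (adjusted p = 0.51).

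Mural-like cells, the pericytes and smooth muscle of the vessel wall, were too few for the first fit and were tested in a wider one that asked for at least 40 cells. Against the endothelial-like clusters 1 gene was called higher and 2 lower, beside 4.87% and 5.29% of all genes and a median log2 fold change of −0.17 over all genes. Il34 was higher by 4.07 ± 0.45 (adjusted p = 2.2e-15), and Cx3cl1 lower by −2.85 ± 0.64 (adjusted p = 0.00032). Tgfb1 was called lower (−1.98 ± 0.61, adjusted p = 0.018), and DESeq2 did not call it (adjusted p = 0.13). Against pial and perivascular cells 1 was called higher and 1 lower, beside 6.09% and 6.95% of all genes and a median of −0.19. The gene called higher was Tgfb2, with 12 UMIs in mural-like cells and 3 in pial cells (adjusted p = 2.9e-05). Its pooled ratio was 23.5 (exact 95% interval 6.35 to 130, counting error only). The gene called lower was Tgfbr1, at 40.1 and 40.2 CPM in mural-like cells, against 218 and 173 CPM in pial cells (−2.52 ± 0.53, adjusted p = 6.4e-05). Il34 did not differ past the threshold from pial cells (0.15 ± 0.31, adjusted p = 0.84). Pial markers summed to 388 and 402 CPM in mural-like cells, against 6380 and 5277 CPM in pial cells, and erythroid markers to 19042 and 62838 CPM in mural-like cells.

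Many macrophage and microglia barcodes were poor in Malat1, so the receptor levels were also read apart in cells with under 1% of UMIs from it and in cells with at least 1%. Malat1-poor microglia-like cells had 796 and 729 CPM of Cx3cr1, against 4373 and 4354 CPM in the rich ones. In border macrophage-like cells the same gene was at 210 and 196 CPM in the poor cells and 717 and 759 CPM in the rich ones. In each of these pairs both libraries of the poor cells lay below both of the rich ones, and the same held for the next genes. Tgfbr1 in microglia-like cells was at 427 and 372 CPM in the poor cells and 1115 and 1142 CPM in the rich ones. As a ratio Csf1r differed less, with 2152 and 1667 CPM in poor and 3033 and 2738 CPM in rich microglia-like cells. The poor microglia-like cells were also shallower, with medians of 1091 and 1058 UMIs against 5083 and 4931.5 in the rich ones. Within the rich cells alone, the border macrophage-like cells had 102 and 85.7 CPM of Tgfbr1, and both this and their Cx3cr1 lay below the microglia-like values.

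**Figure D5:**
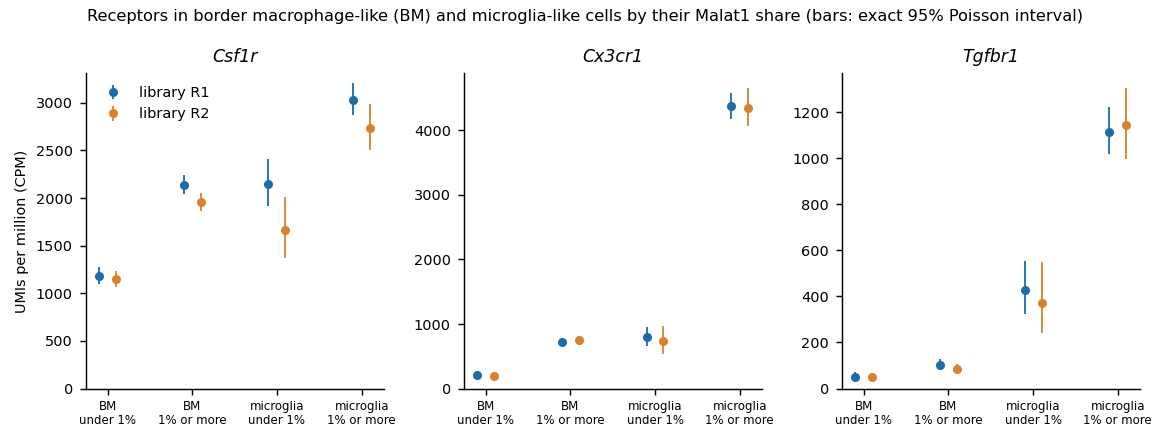
Levels of Csf1r, Cx3cr1 and Tgfbr1 (CPM) in border macrophage-like (BM) and microglia-like cells, split at 1% of UMIs from Malat1, with one point for each library and bars for the exact 95% Poisson interval. Csf1r, Cx3cr1 and Tgfbr1 are lower in Malat1-poor cells of both classes. In microglia-like cells the ratio of rich to poor is smallest for Csf1r.

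Other genes of the same pathways were taken from lists chosen for these signals, and no test of a list was made. Against the macrophage and microglia classes, the fibroblast-like layers had 2 genes called higher and 17 lower of 19 tested in the list of CSF1R signalling and related cytokine genes, beside 35.1% and 31.4% of all genes. Its median log2 fold change was −6.55, or −6.10 with the gene at 0 UMIs on one side set to its bound, beside 0.10 over all genes. The lower ones include Trem2, a lipid receptor of microglia (9.84 and 5.26 CPM in the layers, against 1620 and 1622 CPM in the myeloid classes), and Irf8, a myeloid transcription factor. Border macrophage-like cells had 0 higher and 8 lower of the 19 than microglia-like cells, beside 20.3% of all genes called in either direction. Trem2 was at 634 and 618 CPM in border macrophage-like cells, against 2606 and 2625 CPM in microglia-like cells (−1.99 ± 0.20, adjusted p = 6.8e-17).

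In the list of TGF-beta activation, receptors and SMADs, 25 of 28 genes were tested, and the fibroblast-like layers had 12 higher and 6 lower than the myeloid classes (median 0.48), beside 35.1% and 31.4% of all genes. Ltbp3, which ties latent TGF-beta to the matrix, was higher by 3.29 ± 0.19 (adjusted p = 1.4e-35), and Tgfbr3, a co-receptor, by 3.33 ± 0.19 (adjusted p = 5.8e-37). Nrros, the anchor of latent TGF-beta on myeloid cells, was lower (−6.52 ± 0.26, adjusted p = 3.7e-53), at 2.50 and 1.67 CPM in the layers, against 159 and 234 CPM in the myeloid classes. The endothelial-like cells had 11 higher and 4 lower (median 0.48), beside 24.9% and 21.0% of all genes, led by Ltbp4 and the endothelial TGF-beta family receptors Acvrl1 and Eng (log2 fold changes of 5.58, 4.60 and 4.48). Border macrophage-like cells had 1 higher and 8 lower than microglia-like cells (median −0.26), beside 20.3% of all genes in either direction, among them the inhibitory SMAD Smad7, at 5.91 and 9.96 CPM, against 216 and 229 CPM (−4.79 ± 0.27, adjusted p = 1.1e-35). Of 9 TGF-beta target genes tested, the layers had 4 higher and 4 lower than the myeloid classes, close to the shares over all genes (35.1% and 31.4%). The higher ones include Ccn2, a matrix-associated growth regulator (4.43 ± 0.27, adjusted p = 3.9e-34).

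Among the layers, the same list placed different genes in pial and dural border cells. Pial cells had 5 higher and 3 lower of 24 tested, beside 9.95% and 8.40% of all genes. Ltbp1 was at 93.6 and 49.3 CPM, against 1.16 and 4.22 CPM in the other layers (4.63 ± 0.50, adjusted p = 5.8e-09), and Lrrc32, another anchor of latent TGF-beta, was at 80.3 and 56.4 CPM, against 10.1 and 9.91 CPM. Dural border cells had 8 higher and 1 lower, beside 19.1% of all genes in either direction. Thbs1, an activator of latent TGF-beta, was at 367 and 245 CPM, against 45.9 and 36.6 CPM in the other layers (2.81 ± 0.19, adjusted p = 3.2e-13), and the third ligand Tgfb3 was at 77.5 and 73.0 CPM, against 27.0 and 30.9 CPM. Arachnoid barrier cells had 3 higher and 3 lower (6.76% and 4.46% of all genes), with Itgb8, an integrin chain that activates latent TGF-beta, at 204 and 201 CPM, against 61.2 and 58.8 CPM. Inner arachnoid cells had 1 higher and 7 lower (18.2% and 12.1% of all genes). Of 8 target genes tested, dural border cells had 6 higher and 1 lower, among them Tgfbi and Id1, and inner arachnoid cells 1 higher and 6 lower.

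The remaining lists were small, and in this comparison 35.1% of all genes were called higher and 31.4% lower. Of the 7 genes of fractalkine shedding and receptor signalling tested, the fibroblast-like layers had 0 higher and 6 lower than the myeloid classes (median −2.24), led by Ctss, the lysosomal protease cathepsin S, at 11.1 and 8.78 CPM, against 3957 and 4350 CPM. Of 9 IL-1 family genes tested, 2 were higher and 6 lower (median −1.51). The IL-1 receptor Il1r1 was an endothelial gene, at 139 and 231 CPM, against 0.370 and 2.61 CPM in the myeloid classes. In the list of the receptors Tyro3, Axl and Mertk and their ligands, the layers had 1 higher and 3 lower of 4 tested (median −1.98), and the ligand gene Gas6 was at 1074 and 1131 CPM in border macrophage-like cells, against 182 and 163 CPM in microglia-like cells (2.71 ± 0.21, adjusted p = 7.2e-24). In the list of CD200 and CD47 with their receptors, the layers had 1 higher and 2 lower of 4 (median −2.30). Cd200, which restrains macrophages through Cd200r1, was at 304 and 274 CPM in endothelial-like cells, against 7.30 and 2.33 CPM in the myeloid classes (5.45 ± 0.27, adjusted p = 1.6e-42), and Cd200r1 was at 98.3 and 98.3 CPM in border macrophage-like cells, against 23.4 and 35.0 CPM in microglia-like cells.

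The genes with the most similar pattern over the 8 classes and both libraries (Pearson correlation of log2(CPM + 1), 16 points that share libraries, described without a test) differed for each member. For Il34 they were Angptl2 (r = 0.97), Dcn (0.95) and Pcca (0.93), and for Csf1 they were Pear1, Ginm1 and Fbln5 (0.95 each). The 3 complement C1q genes C1qb, C1qa and C1qc were closest to Csf1r (0.99 each), and Pou2f2 and Lair1 to Cx3cr1 (0.97 each). Mef2c was closest to Tgfb1 (0.98), Nampt to Tgfb2 (0.94), Hps4 to Tgfbr1 (0.91), Eif2ak2 to Tgfbr2 (0.93) and Cgnl1 to Cx3cl1 (0.96).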

How the data were processed

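The deposited files are UMI counts per gene and barcode, which the authors made on the mm10 build with Cell Ranger (version 4.0.0 in the deposited headers), per the submitters' processing notes. Strand use in counting is not given in the sources used here. Il34, Csf1r, Tgfb2 and Cx3cr1 overlap genes on the other strand, and Csf1r and Cx3cr1 also overlap genes on their own strand. From these counts, barcodes with under 400 genes or over 10% mitochondrial UMIs were left out. Those of the 93 barcodes found in both libraries that passed these limits took part in the clustering and naming. They were then left out of all sums. Scrublet called 3 doublets in each library (0.100% in R1), so doublets were in effect not removed. Cells were clustered with scanpy 1.11.5 (2000 variable genes, 30 components, resolution 1.0) without the 10 genes and the pathway lists. The 10 genes, the lists and the tests were chosen with earlier results of these data known.

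UMIs were summed per library and class (at least 50 cells in each library) and tested with edgeR 4.0.16 (TMM, filterByExpr, quasi-likelihood, library as a block, because the classes of a library come from 1 suspension; threshold 0.05). One fit held 8 classes and 9940 genes, a second the 4 layers and 8414 genes, and another, added after the data were seen, 10 classes and 9366 genes. The contrasts with border macrophage-like and microglia-like cells apart, of endothelial clusters and of mural-like cells were also added then. On simulated counts, 192 of 193 genes changed by the same large fold were recovered. Smaller changes, and changes in genes with few UMIs, were not simulated. The intervals on shares are Clopper-Pearson, those on counts Poisson. Pathway genes are named where they had the largest changes past the threshold, in the same direction in both libraries, and at least 50 CPM on the higher side. A few such genes are left unreported here. DESeq2 1.42.0 and the other alternatives are given in the closing section. PCR duplicates are collapsed by UMIs, and all intervals cover counting error only. Kept cells had 7410147 and 6030787 UMIs, with medians of 1632 and 1231.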

Additional observations from a re-analysis of the deposited data

Results flagged for a closer look

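The 93 barcodes found in both libraries enter no comparison above. Levels are given for members whose exact 95% counting interval lay, in both libraries, wholly above the level that 3 counts give (11.4 CPM in R1 and 10.9 CPM in R2). The share of all genes that pass this level was not counted. Tgfb2 was at 118 CPM in R1 and 83.9 CPM in R2. Tgfbr2 was at 94.9 and 109.4 CPM, Tgfb1 at 79.7 and 73.0 CPM and Csf1 at 56.9 and 51.1 CPM. Csf1r was at 49.3 and 43.8 CPM and Cx3cl1 at 41.7 and 40.1 CPM. For each of these genes the value of one library lies inside the exact 95% counting interval of the other, but both come from the same barcodes and are not replicates. Il34 had 1 UMI in each library and Il33 none; a floor of 3 counts corresponds to 11.4 and 10.9 CPM. Among the cells that passed the limits, 67 of these barcodes in each library were endothelial-like.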

How the results depend on the processing

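Over the alternatives with a test, 655 values kept their side of the threshold, 47 lost a call, 19 gained one and 1 reversed. Values with no call could change sign and still count as kept. The contrasts added after the data were seen are not in these counts, and calls were lost and gained there too. Leaving out a library has no test here: 109 values kept their place, 18 moved and 1 reversed. A value kept its place if it lay within the SD between the libraries, which values far apart can also do. Tgfb2 in inner arachnoid cells against the other layers kept its place with −1.21 in R1 alone and 1.40 in R2 alone. Tgfbr1 in fibroblast-like against myeloid cells reversed to 0.78 in cells with at least 1% Malat1 UMIs, where microglia-like cells did not reach 50 in each library and border macrophage-like cells were the only myeloid class. Cx3cr1 in fibroblast-like against endothelial-like cells ranged from −4.64 to 0.35 when a library was left out. Without the library as a replicate block 61 values kept their side of the threshold and 3 lost a call. Tgfb2 in fibroblast-like against myeloid cells lost its call at 5% mitochondrial UMIs (adjusted p = 0.93) and equal UMI totals (0.071). Il34 in endothelial-like against myeloid cells lost it under 4 of 12 alternatives.

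Counts of genes called moved more. For fibroblast-like against myeloid cells, 6602 genes were called, against 4278 with classes drawn on 1 part of the counts and tested on the other (split counts) and 4214 at equal UMI totals. Endothelial-like against myeloid cells gave 4564, and 2850 at equal totals. Fibroblast-like against endothelial-like cells gave 3586, with 2342 (split counts) and 2279 (equal totals). Border macrophage-like against microglia-like cells gave 2017, with 1211 (DESeq2), 1299 (split counts) and 1001 (equal totals). Pial cells gave 1544, with 826 (DESeq2), 651 (5% mitochondrial UMIs), 866 (split counts), 986 (equal totals) and 2621 (unnamed fibroblast-like clusters added). Inner arachnoid cells gave 2549, with 1111 (DESeq2), 1018 (5% mitochondrial UMIs), 1326 (at least 800 genes), 971 (at least 1% Malat1), 836 (split counts) and 1424 (equal totals). Arachnoid barrier cells gave 944, with 445 (DESeq2). Dural border cells gave 1610, with 725 (DESeq2), 2476 (the 10 genes and pathway genes allowed in the clustering), 855 (equal totals) and 2747 (unnamed clusters added). The causes were not tested. Arachnoid barrier cells formed no class with split counts, at 5% mitochondrial UMIs or with the 10 genes in the clustering, so they have no value there. Class sums of under 10 UMIs, as for Il34, Tgfb2 and Cx3cl1 in microglia-like cells and Il33 in most classes, are limited by depth.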

Other observations

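Within the mural-like cells, Il34 was uneven, a split chosen after its values were seen. Cells with more pericyte-marker UMIs (18 in R1 and 20 in R2) had 955 CPM of Il34 in R1 (exact 95% interval 606 to 1434) and 428 CPM in R2 (205 to 788), from 23 and 10 UMIs in 12 and 8 cells. Cells with more smooth-muscle-marker UMIs (24 and 22) had 63.1 CPM (13 to 184) and 159 CPM (43.3 to 407), from 3 and 4 UMIs. Tgfb2 in the same cells went the other way in R2 only, at 83.1 and 42.8 CPM in the pericyte-marker cells and 63.1 and 199 CPM in the smooth-muscle-marker cells, on 1 to 5 UMIs each. These are counts from few cells and carry no test.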
